A study of Mus musculus with 4 samples.

Results

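The early lineage regulators described here are 10 transcription factor genes that are normally silent in embryonic stem cells and are switched on when the germ layers and the trophoblast form: Gata4, Gata6, Sox17, Foxa2, T, Eomes, Gsc, Mixl1, Cdx2 and Pax6. Their contacts were taken from H3K27ac HiChIP, in which DNA ends ligated in fixed nuclei are enriched with an antibody against acetylated lysine 27 of histone H3, a mark of active promoters and enhancers. The table counted read pairs between anchors, genomic intervals that each began and ended at a DpnII cut site, and every anchor pair in it, however few its counts, is termed a loop here. A loop was taken when at least 1 of its anchors overlapped a GENCODE M21 transcription start site of a member on GRCm38. This rule gave 598 of 1513030 loops, with 2832 of 11421316 counts, at 9 of the 10 genes. The cells were mouse embryonic stem cells of 2 inbred strains, C57BL/6J (B6, lines B6 4-1 and B6 5-1) and DBA/2J (D2, lines D2 2-9 and D2 5-5), and each line gave 1 library, so n = 2 per strain. Both strains were grown alike, in 15% serum with LIF, the MEK inhibitor PD0325901 at 1 μM and the GSK3 inhibitor CHIR99021 at 3 μM, and fixed in 1% formaldehyde. The labels name no transgene, deletion or sorting of cells, and no age. The library totals ran from 2767882 to 2944258 counts, and 3 libraries are named with 8cyc and D2 replicate 1 with 10cyc, a mark whose meaning the labels do not state.

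In pluripotent cells the promoters of such regulators are known as targets of Polycomb complexes, which place the repressive mark H3K27me3, and many also carry the promoter mark H3K4me3, a state called bivalent. H3K27ac and H3K27me3 sit on the same lysine and exclude each other on a histone tail, so H3K27ac is not the mark these promoters are known for in stem cells. Gata4, Gata6, Sox17 and Foxa2 drive endoderm, both the extraembryonic and the definitive kind. T (Brachyury), Eomes, Gsc and Mixl1 mark the primitive streak and its mesendoderm, Cdx2 the trophectoderm and Pax6 the neural ectoderm and eye.

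An anchor over a start site was present for 9 of the 10 genes, and Foxa2 was the gene without one. Among all protein-coding genes of the autosomes, 13996 of 20807 (67.3%) had such an anchor. Among 10 pluripotency genes, which stem cells express, 7 had one, and Klf2, Esrrb and Tfcp2l1 had none. How the anchors were chosen is not given in the sources used here, and a start site without an anchor therefore has no value here rather than a count of 0.

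The anchors did not always lie over the 5′ end of the gene. For Gata6, T, Eomes, Gsc, Mixl1 and Cdx2 the 5′ end of the gene model was inside the anchor. For Gata4, Sox17 and Pax6 the anchors covered start sites of internal transcripts, and when the 5′ end alone was counted, 6 of the 10 genes had an anchor, with 416 loops, against 63.5% of all protein-coding genes. The Gata4 anchor (chromosome 14, 63244654 to 63246529) lay within the gene over 2 of its 5 start sites, with 121 bp of exon and 1755 bp of intron. The Gata4 5′ end at 63271692 lay 14442 bp from the nearest anchor downstream of it. The Sox17 anchor (chromosome 1, 4490033 to 4494731) held 2 of 8 start sites and reached to 2623 bp from the 5′ end at 4497354. Pax6, with 24 start sites, had anchors on chromosome 2 from 105673656 to 105679273, over 9 of them, and from 105687299 to 105693610, over 1, while its 5′ end at 105668900 was 4756 bp away.

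The other anchors also differed in what they held. The Cdx2 anchor (chromosome 5, 147297807 to 147308996, 11190 bp) and the Gsc anchor (chromosome 12, 104470796 to 104479526, 8731 bp) covered the whole gene. The Eomes anchor (chromosome 9, 118475946 to 118483912) covered 72.0% of the gene. The T anchor (chromosome 17, 8426792 to 8436014) lay mostly before the gene, with 7631 of its 9223 bp upstream. The Mixl1 anchor (chromosome 1, 180694753 to 180698414) covered 57.2% of the gene, and the Gata6 anchor (chromosome 18, 11050071 to 11053843) 5.30%. The Gata6 anchor also held a start site of 1010001N08Rik and the Gsc anchor one of Gm10000, and reads of such neighbours cannot be told apart. The median width of these 10 anchors was 5965 bp, against 4079 bp for all 56562 anchors.

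At Foxa2 (chromosome 2, 148042877 to 148046969, minus strand) none of the 4 start sites was in an anchor. The nearest anchors were 14607 bp downstream (148027918 to 148032362) and 73642 bp upstream (148120611 to 148124430) of its 5′ end. They were weak, with 54 and 27 counts over the 4 libraries, and no pair joining them was in the table. Loops that spanned the Foxa2 5′ end numbered 153 with 252 counts in all, and 0 of them reached 20 counts. The 5′ ends of the 9 genes with an anchor were spanned by more. Loops ranged from 223 at T to 1324 at Cdx2, and counts from 310 at T to 3957 at Mixl1. Of the 9, 7 were spanned by loops of at least 20 counts (T and Pax6 by 0). At Gata4, Sox17 and Pax6 the anchors lay downstream of the 5′ end, so the spanning loops include the gene's own upstream loops. At Sox17 the 3 spanning loops of at least 20 counts were its own. Foxa2, without an anchor, has no such loops, so at these genes the comparison is not like for like.

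Promoter sequences are shown for T, Eomes and Cdx2, whose start sites were inside an anchor, and for Foxa2, the gene without one, because the assay could join only fragments cut at GATC, the DpnII site. The windows are the 250 bases before the RefSeq start site on GRCm38.p6, written 5′ to 3′ on the gene's strand, with GATC in capitals.
T, chr17:8434173-8434422, plus strand: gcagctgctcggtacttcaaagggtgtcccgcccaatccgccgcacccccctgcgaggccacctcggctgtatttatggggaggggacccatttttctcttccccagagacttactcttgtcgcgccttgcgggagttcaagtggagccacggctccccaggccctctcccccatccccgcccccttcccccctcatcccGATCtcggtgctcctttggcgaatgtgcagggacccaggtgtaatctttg
Eomes, chr9:118477939-118478188, plus strand: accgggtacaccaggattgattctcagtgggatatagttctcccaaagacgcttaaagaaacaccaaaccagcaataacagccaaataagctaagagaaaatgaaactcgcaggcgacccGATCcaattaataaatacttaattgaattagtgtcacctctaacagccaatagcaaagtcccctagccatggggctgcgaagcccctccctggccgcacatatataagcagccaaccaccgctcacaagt
Cdx2, chr5:147307250-147307499, minus strand: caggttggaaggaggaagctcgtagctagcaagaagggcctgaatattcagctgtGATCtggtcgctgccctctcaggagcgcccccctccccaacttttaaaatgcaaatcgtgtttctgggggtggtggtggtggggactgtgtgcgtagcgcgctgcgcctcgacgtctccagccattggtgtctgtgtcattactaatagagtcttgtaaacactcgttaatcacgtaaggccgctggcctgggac
Foxa2, chr2:148046970-148047219, minus strand: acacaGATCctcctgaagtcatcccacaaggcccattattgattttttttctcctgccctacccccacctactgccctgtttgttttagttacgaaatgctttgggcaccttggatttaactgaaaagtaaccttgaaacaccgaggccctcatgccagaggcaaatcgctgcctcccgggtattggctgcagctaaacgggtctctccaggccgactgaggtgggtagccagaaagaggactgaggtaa
Each of these 4 windows held 1 GATC, at 50 bases before the start site in T, 130 in Eomes, 195 in Cdx2 and 245 in Foxa2. Whether the sites around Foxa2 bear on its missing anchor was not tested. The Gsc window, whose start site was also inside an anchor, and the Pax6 window held 0 and are not shown. The site was present in 41.9% of 32851 such windows. CpG dinucleotides numbered 14 in T, 8 in Eomes, 13 in Cdx2, 6 in Foxa2, 22 in Gsc and 15 in Pax6, against a median of 6 over the windows. The TCF/LEF core CTTTGA, through which Wnt signals act, was searched on both strands, and the T window alone of the 6 held it, with 1 match, against 13.8% of all windows. The T-box core AGGTGT was likewise matched in that window alone (11.8% of windows). The GATA-factor core AGATAA was matched in none of the 6 (9.99%), and no match shared bases with another. RefSeq windows were used for 6 of the 10 genes, and Gata4, Gata6, Sox17 and Mixl1 were not matched.

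The total over all loops at a gene's start sites was low at most of these genes. Cdx2 had the most counts, 772 over the 4 libraries, followed by Gsc with 464, Eomes with 402, Pax6 with 253, Mixl1 with 249, Sox17 with 228, T with 181, Gata6 with 173 and Gata4 with 110. The median of the 9 was 249, against 610 for the 13996 protein-coding genes with an anchor. Cdx2 was the single gene above that median, at the 56.5th percentile of the totals. In bulk libraries such as these, contacts in fewer cells and weaker signal per cell cannot be told apart. Of the genes that define these cells, Pou5f1, Sox2 and Nanog all had anchors, and Nanog, Tbx3 and Pou5f1, the pluripotency genes with the most counts, had 7341, 5222 and 5038. A wider anchor collects more read pairs, so levels were also taken per kb of anchor. Per kb, Cdx2 (69.0 counts) and Mixl1 (68.0) were close to the median gene (67.9). Gata4 (58.6), Gsc (53.1), Eomes (50.5), Sox17 (48.5) and Gata6 (45.9) were below it. Pax6 (21.2) and T (19.6) had the lowest values, near the 10.5th and 9.38th percentiles of all genes. The 9 genes had a median of 50.5 counts per kb and the 7 pluripotency genes with an anchor 72.7, of which Nanog had 196.4 and Zfp42, the lowest, 54.3. On this scale the groups overlapped, since Cdx2 and Mixl1 lay above Sox2 (65.0) and Zfp42.

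**Figure D1:**
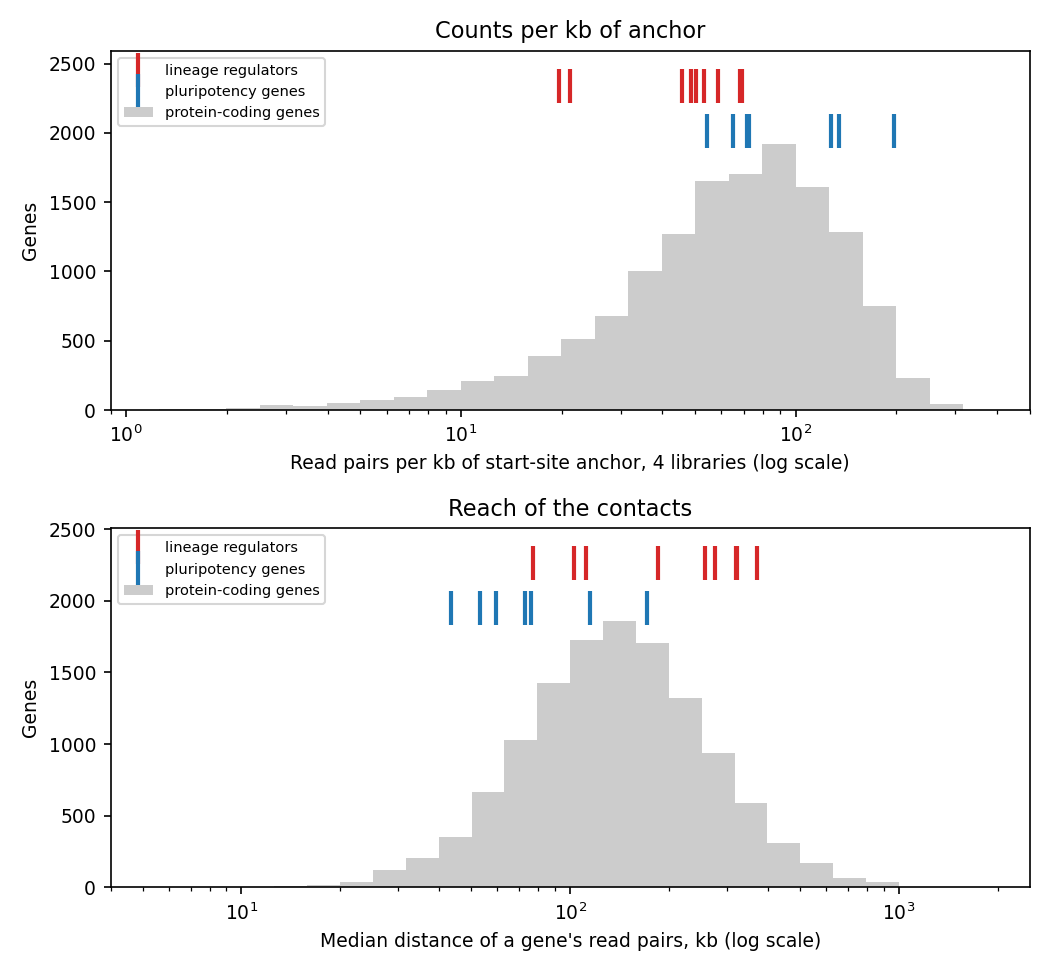
Upper panel, read pairs per kb of start-site anchor summed over 4 libraries (log axis); lower panel, median distance of a gene's read pairs in kb (log axis), drawn for genes with at least 100 counts. Grey bars count protein-coding genes, red ticks are the 9 lineage regulators and blue ticks the 7 pluripotency genes with an anchor; T (19.6 per kb) and Pax6 (21.2) sit in the lower tail, and Cdx2 (368.8 kb) has the longest reach of the 16 genes marked.

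Scaled to 1000000 counts of the library (CPM), the order of the genes was much the same in every library. Cdx2 had 68.8 and 80.3 CPM in the B6 libraries and 60.7 and 60.8 in the D2 libraries, the highest of the 9 in each. Gsc had 39.9 and 44.3 in B6 and 40.8 and 37.7 in D2, and Eomes 27.9 and 30.3 in B6 and 40.1 and 42.5 in D2. Gsc was above Eomes in both B6 libraries and in D2 replicate 1, and below it in D2 replicate 2. Mixl1 had 17.9 and 21.4 CPM in B6 and 22.8 and 25.1 in D2. Its D2 libraries were both above its B6 libraries. Pax6 had 24.8 and 18.9 in B6 and 19.9 and 24.8 in D2. Sox17 had 20.3 and 17.1 in B6 and 24.2 and 18.3 in D2. In both genes the strains overlapped. T had 15.5 and 19.6 in B6 and 12.3 and 16.0 in D2. Gata6 had 17.2 and 13.9 in B6 and 11.9 and 17.3 in D2. The ranges of Mixl1, Pax6 and Sox17 overlapped, as did those of T and Gata6, so the order within these sets is not beyond the spread of the libraries. Gata4, with 9.97 and 10.4 CPM in B6 and 7.95 and 10.2 in D2, was the lowest of the 9 in every library.

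**Figure D2:**
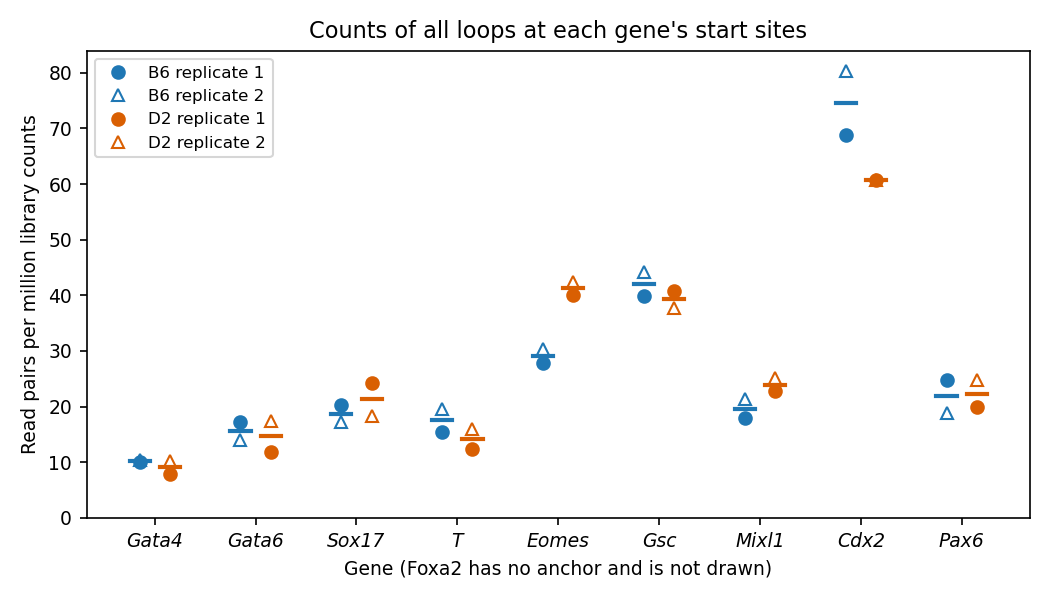
Read pairs in CPM (vertical axis) of all loops at the start sites of each gene, with 1 symbol per library, filled for replicate 1 and open for replicate 2, and a bar at the mean of the 2 libraries of a strain. Cdx2 lies highest, between 60.7 and 80.3, and Gata4 lowest, between 7.95 and 10.4; Eomes and Mixl1 have both D2 libraries above both B6 libraries, and Cdx2 has both below.

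Other genes of the same lineages, regulators and other markers, were read from lists of 12 endoderm, 13 mesoderm, 10 trophectoderm and 11 autosomal neuroectoderm genes. An anchor was present at 34 of these 46 genes (73.9%): 10 endoderm, 7 mesoderm, 8 trophectoderm and 9 neuroectoderm genes. Those without one were Hnf4a and Cer1, then Mesp2, Lhx1, Hand1, Foxf1, Nkx2-5 and Fgf8, then Elf5 and Tpbpa, and Pax7 and Zic1. The median over the 34 genes was 383 counts and 51.2 counts per kb, close to the 50.5 of the 9 regulators. The mesoderm gene with the most counts was Tbx6, with 1680 counts and 211.4 per kb, at the 98.8th percentile of all genes, followed by Mesp1 (373) and Evx1 (267). In the trophectoderm list these were Tead4 (3467), which encodes a TEAD factor of the Hippo pathway, Tfap2a (1665) and Gata3 (1020). In the neuroectoderm list they were Olig2 (1260), Otx2 (1237) and Nes (710), and in the endoderm list Foxa3 (707), Pdgfra (644) and Lama1 (596). Isl1 had the fewest, 11 counts.

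The 598 loops were sparse. Of them, 44.0% had a single count over the 4 libraries, against 31.6% of loops seen from all anchors over protein-coding start sites. Loops with at least 20 counts numbered 28 (4.68%) and held 37.4% of the counts. Of these 28 loops, 13 led to an anchor over a protein-coding start site, 3 to one over a start site of another gene type and 12 to one with no start site.

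Among the endoderm genes, Sox17 had the most concentrated contacts, with 51.3% of its counts in 3 loops. They joined it to the start-site anchors of Mrpl15 (4765408 to 4790797), a mitochondrial ribosomal protein gene, Lypla1 (4795822 to 4832924), which encodes a thioesterase, and Tcea1 (4847187 to 4869128), a transcription elongation factor gene. These lay 285.7, 322.0 and 365.8 kb upstream. The Mrpl15 loop had 15 and 8 counts in B6 and 17 and 11 in D2. The Lypla1 loop had 11 and 8 in B6 and 14 and 10 in D2, and the Tcea1 loop 5 and 3 in B6 and 8 and 7 in D2. The Tcea1 counts did not overlap between strains, as in 41.7% of all tested loops of the table, and those of the other loops did. Upstream partners took 84.2% of the Sox17 counts, and 67.5% of the counts lay between 200 and 500 kb.

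Gata4 had 1 loop of 20 counts, to the start site of Fdft1 (63155150 to 63181111), which encodes squalene synthase, 77.5 kb downstream, with 5 and 5 counts in B6 and 3 and 7 in D2. The next were to Tdh (63488815 to 63516509), the threonine dehydrogenase gene, 257.1 kb upstream, with 11 counts, and to an anchor in Xkr6 with 6. Gata6 was different in kind, since 76.3% of its counts led to anchors with no start site. Its strongest loop, 30 counts, joined the start to an anchor at the gene's 3′ part (11074144 to 11084855) 27.5 kb away, with 9 and 6 counts in B6 and 4 and 11 in D2. The next joined it to anchors 12.0 kb (15 counts) and 168.6 kb (14 counts) upstream. The 168.6 kb loop had 1 and 2 counts in B6 and 7 and 4 in D2. Its strains did not overlap, as in 38.9% of all loops with at least 10 counts.

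Among the primitive streak genes, Eomes had the nearest contacts, with 40.3% of its counts under 50 kb and a median distance of 76.9 kb. Its strongest loops had 64 counts each. The first led upstream to an anchor with the start sites of Platr11 and 2610509F24Rik (118395730 to 118410351), 76.9 kb away, with 16 and 13 counts in B6 and 17 and 18 in D2. Platr11 is a noncoding RNA gene of the pluripotency associated transcript family. The second joined the neighbouring anchor at the 3′ end of Eomes, over the start of Gm33460 (118485693 to 118491128), with 12 and 13 counts in B6 and 21 and 18 in D2. The next, to an anchor with no start site 17.3 kb downstream, had 9 and 4 in B6 and 12 and 15 in D2. In each of these 3 loops both D2 libraries had more counts than both B6 libraries, as in 23.8% of all tested loops. The Golga4 loop, 29.9 kb downstream, had 7 and 8 counts in B6 and 6 and 15 in D2 and overlapped.

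Gsc, a homeobox gene of the organizer, had 78.4% of its counts with anchors that held no start site. The strongest was 24.3 kb downstream (104445490 to 104456257), with 13 and 17 counts in B6 and 17 and 21 in D2, and the next were 601.9 kb upstream (105047424 to 105106743; 31 counts) and 287.9 kb upstream in Clmn, 3329 bp from the Dicer1 start site (104755281 to 104770775; 26 counts). Mixl1, a homeobox gene of the mesendoderm, contacted the start-site anchors of Gm38293 (68.6 kb upstream; 25 counts) and of Acbd3 (31.3 kb upstream; 21 counts). Of the Mixl1 counts, 55.0% lay between 50 and 200 kb. T had a single loop of at least 20 counts, to an anchor in its neighbour T2 with no start site (8407358 to 8414841), 20.3 kb upstream, with 11 and 7 counts in B6 and 5 and 5 in D2. The next T loops led to start sites of T2, 34.8 and 57.5 kb away, with 14 and 13 counts, and 74.6% of the T counts lay upstream.

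Cdx2 had 8 loops of at least 20 counts, the most of the 9 genes. The strongest of all 598 loops joined Cdx2 to the start-site anchor of Gtf3a (146913080 to 146956148), a gene of the RNA polymerase III machinery, 368.8 kb downstream. It had 36 and 31 counts in B6 and 27 and 31 in D2, or 12.4 and 11.1 CPM in B6 and 9.75 and 10.5 in D2, so both D2 libraries lay below both B6 libraries, as in 17.9% of all tested loops. Lnx2 and Polr1d (147062186 to 147089207; 227.7 kb) followed with 12 and 20 counts in B6 and 10 and 14 in D2. The third was the adjacent anchor 9.73 kb away with 41 counts, and the fourth the anchor of Rpl21 and Rasl11a (146818208 to 146846922; 470.8 kb) with 9 and 16 in B6 and 3 and 7 in D2. The share of Cdx2 counts under 50 kb was 6.48%. Pax6 had 1 loop of at least 20 counts, between its own 2 anchors 13.99 kb apart, with 12 and 7 counts in B6 and 6 and 13 in D2. Next came Rcn1 (105385297 to 105402578), a calcium-binding protein gene of the secretory pathway, 282.5 kb upstream of the first anchor (18 counts) and 296.5 kb upstream of the second (13 counts).

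**Figure D3:**
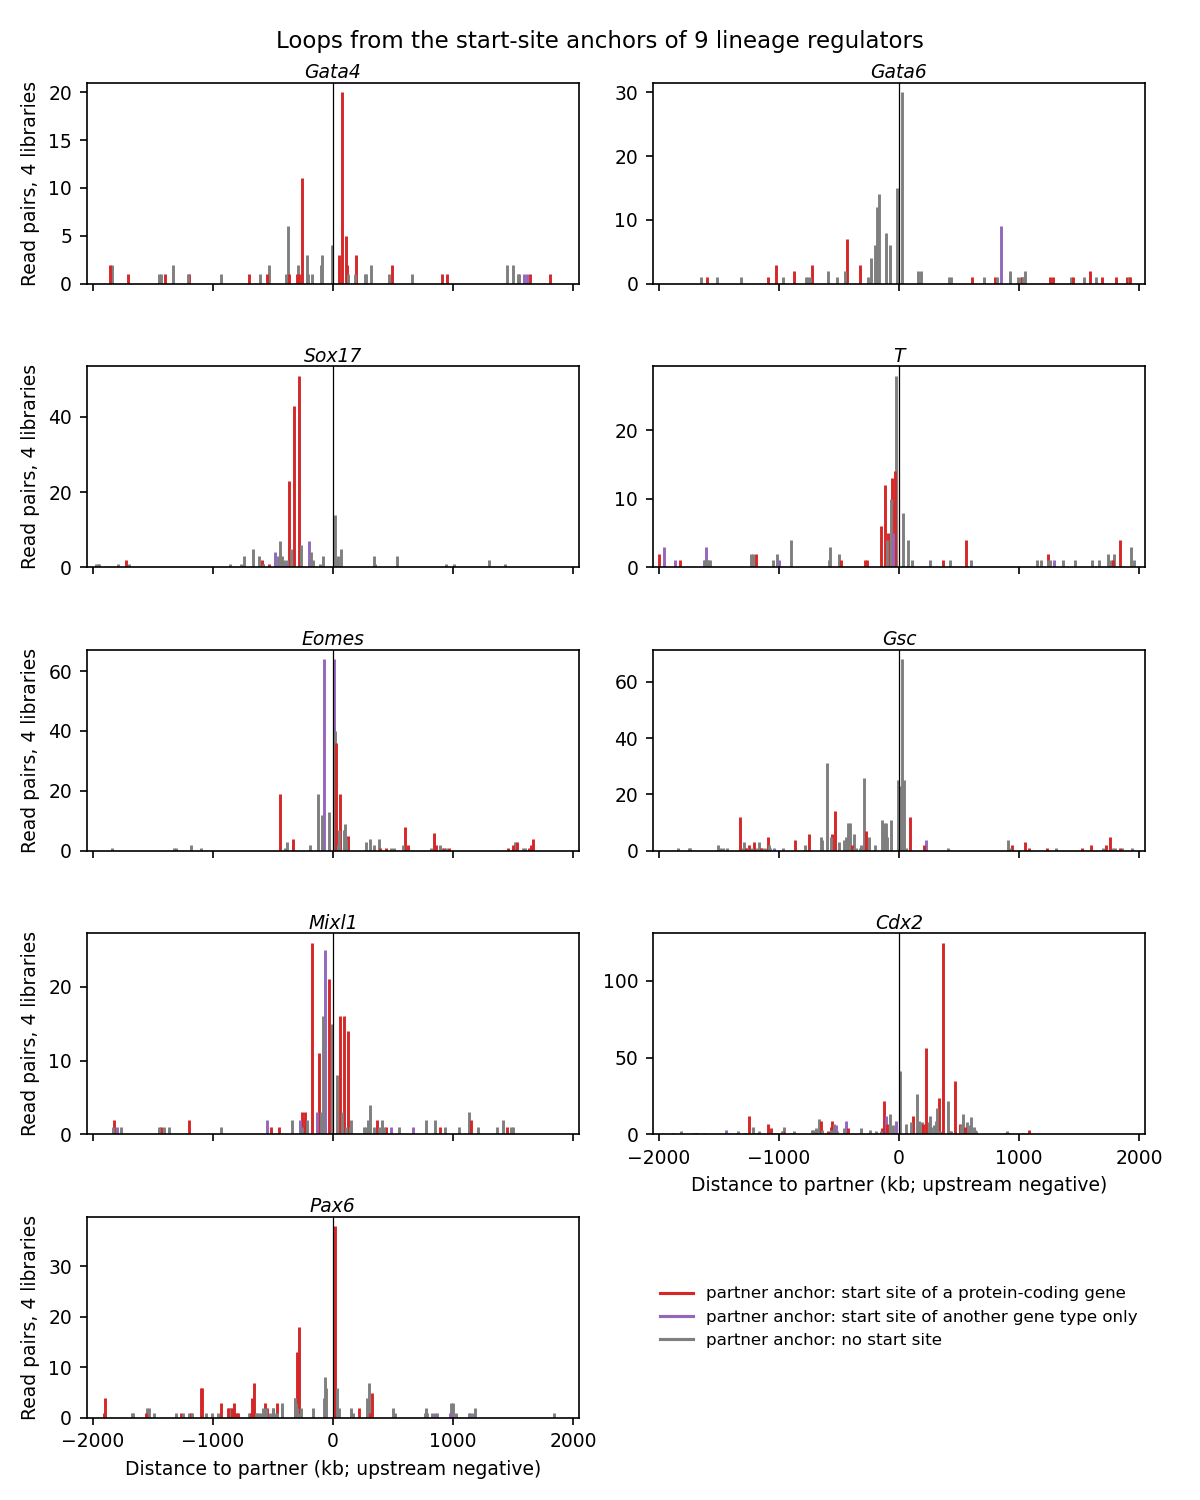
Each vertical line is 1 loop of the named gene, placed at the distance of the partner anchor in kb (upstream negative) and as high as its read pairs summed over 4 libraries; vertical scales differ between panels. Red lines lead to start sites of protein-coding genes, purple to start sites of other gene types and grey to anchors with no start site; the tall red lines of Sox17 (285.7 to 365.8 kb upstream) and Cdx2 (368.8 kb downstream, 125 counts) contrast with the grey and purple lines that are tallest at Gata6, Eomes and Gsc.

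The median distance of a count was 276.4 kb over the 598 loops, against 115.3 kb for counts seen from all anchors over protein-coding start sites. The gap was smaller when loops with few counts were left out, and both medians fell with the minimum. With loops of at least 2 counts over the 4 libraries the medians were 227.7 and 108.9 kb. With at least 5 they were 127.7 and 92.8 kb, and with at least 20 they were 77.5 kb over 28 loops and 64.7 kb. The value over 28 loops was unstable, with 77.5 and 176.3 kb in the B6 libraries. With all loops included, the genes differed among themselves. By gene the median was 76.9 kb for Eomes, 102.5 kb for T, 111.9 kb for Mixl1, 184.8 kb for Gata6, 257.1 kb for Gata4, 276.4 kb for Gsc, 318.4 kb for Pax6, 322.0 kb for Sox17 and 368.8 kb for Cdx2. Of the 9 genes, 6 lay above the median of 137.9 kb over the 12603 genes with at least 100 counts, and Cdx2, Sox17 and Pax6 lay above the 90th percentile, at 94.1, 91.0 and 90.8. The median over the 9 genes was 257.1 kb. It was 72.8 kb over 7 pluripotency genes, of which 1, Pou5f1 (171.2 kb), was above the median gene, and 74.0 kb over 8 trophectoderm, 124.5 kb over 9 endoderm, 161.6 kb over 6 neuroectoderm and 189.6 kb over 6 mesoderm genes with at least 100 counts. Counts under 50 kb made up 20.4% of the members' counts and 30.0% of those seen from all protein-coding start sites, and counts over 500 kb 26.7% and 17.4%. Anchors over protein-coding start sites were the partner for 39.5% of the members' counts, against 57.2% when all such anchors were seen in turn. No test was made of these differences, which describe the libraries pooled.

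By library, the median distance of the members' counts was 292.3 and 282.5 kb in B6 and 257.1 and 229.8 kb in D2. Both D2 libraries were lower, so that the D2 mean (243.4 ± 19.3 kb, SD, n = 2) minus the B6 mean (287.4 ± 6.88 kb, SD, n = 2) was -44.0 kb. The whole table moved the same way, from 119.9 ± 0.60 kb in B6 to 107.6 ± 3.79 kb in D2 (SD, n = 2). With 2 libraries in each strain the smallest p of an exact permutation test (two-sided) is 0.33, so none was run.

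The deposited single-library files give each loop a value between 0 and 1, taken here as the q-value of the authors' loop caller. At q under 0.01, 17.5 ± 2.71% of the members' loops with a count were called per library (SD, n = 4 libraries), against 20.2 ± 0.555% of all loops. At least 1 library called 119 of the 598 loops (19.9%, against 22.9% of all loops), and all 4 called 17 (2.84%, against 3.31%), which belonged to 5 genes: 8 to Cdx2, 4 to Gsc, 3 to Sox17 and 1 each to Eomes and Gata6. Gata4, T, Mixl1 and Pax6 had none. These 17 loops spanned 227.7 to 1326.6 kb, so nearer loops with more counts, such as the 68 counts of Gsc at 24.3 kb, were not among them. The partner was over a protein-coding start site in 11 of the 17. The Eomes loop led to Azi2 (118039072 to 118046878), 437.0 kb upstream, with 3 and 2 counts in B6 and 8 and 6 in D2. The Gata6 loop, 848.6 kb long, had 9 counts.

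Partners in this set were broad, with a median width of 25390 bp, and broad anchors collect more counts. Each loop was therefore ranked among loops of the table within 10% of its distance and within 20% of the product of its anchor widths. By this rank the Eomes to Azi2 loop was at the 99.7th percentile of 10987 loops, Sox17 to Mrpl15 at the 99.5th of 4410 and Cdx2 to Gtf3a at the 98.8th of 613. Cdx2 to Lnx2 and Polr1d was at 70.7 and Gsc to the broad anchor at 601.9 kb at 68.1. The T loop at 20.3 kb was at 9.17, so it was weak for its distance and width although it was the strongest loop of its gene. The table lists pairs with at least 1 count, and the percentiles are over those. The 17 loops were chosen by q-values from the same counts, so their ranks are not separate support. All 17 were above the median of loops of like distance and width.

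**Figure D4:**
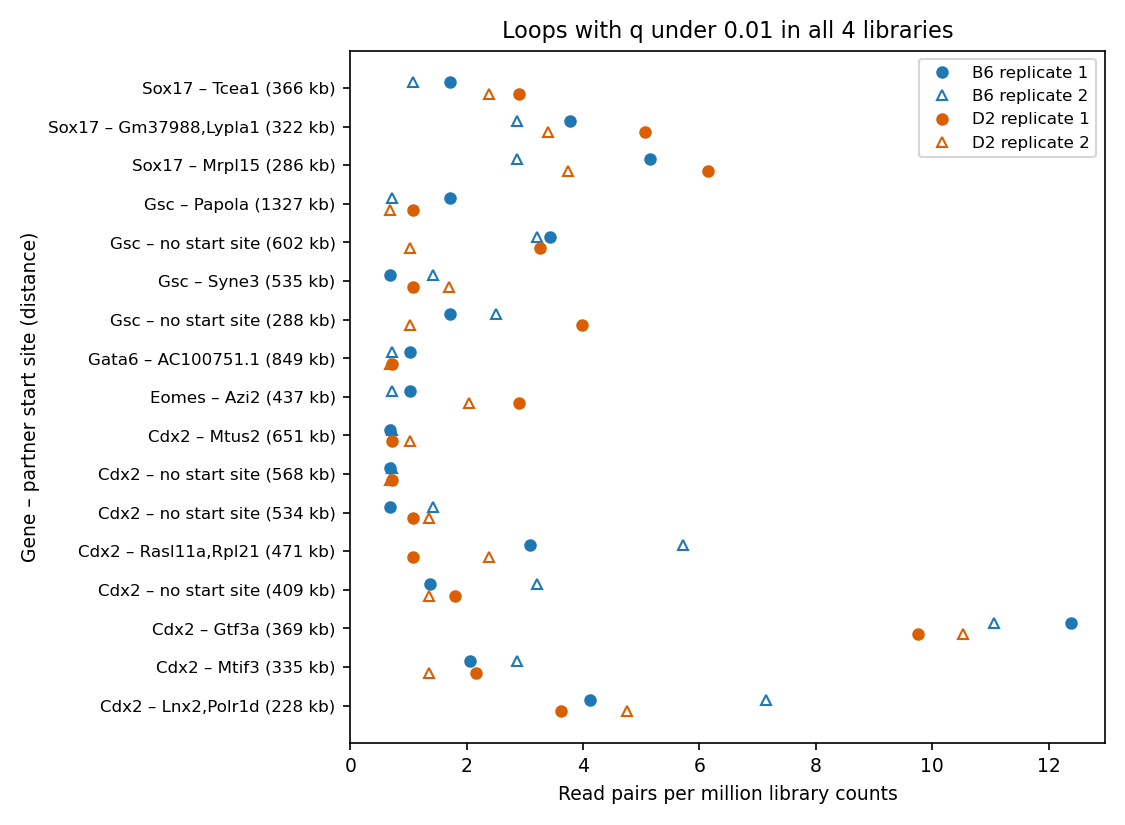
Read pairs in CPM (horizontal axis) of the 17 loops with q under 0.01 in all 4 libraries, labelled by gene, the start sites under the partner anchor and the distance. Symbols are single libraries, blue for B6 and orange for D2, filled for replicate 1 and open for replicate 2; the Cdx2 to Gtf3a loop stands highest, between 9.75 and 12.4.

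The strains were then compared, to see whether contacts of these regulators depend on genetic background. In the quasi-likelihood fit of edgeR, adjusted by Benjamini-Hochberg over all genes, 0 of the 9 gene totals differed between D2 and B6 at an adjusted p under 0.05, while 1832 of 13826 genes did (13.3%), 483 higher (3.49%) and 1349 lower (9.76%) in D2. With library totals in place of TMM factors the split over all genes was 870 higher and 1084 lower. Without adjustment, 2 of the 9 (Cdx2 and Eomes) had an edgeR p under 0.05, against 25.3% of all genes. By the DESeq2 Wald test 0 of the 9 had, against 2084 of 13826 genes. Of the 9 log2 fold changes, 3 were above 0 (4 with library totals) and 6 below, with a median of -0.15, against 0.0078 over all genes. The median of the 9 was -0.0050 without B6 replicate 1, -0.046 without D2 replicate 1, -0.19 without B6 replicate 2 and -0.22 without D2 replicate 2, and -0.085 with library totals.

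Eomes had the highest value among the 9. Its totals were 81 and 85 counts in B6 and 111 and 125 in D2, or 29.1 ± 1.77 and 41.3 ± 1.66 CPM (SD, n = 2). Both D2 libraries lay above both B6 libraries. The log2 fold change was 0.44 (SE 0.19, 95% interval 0.059 to 0.81), with an adjusted p of 0.122 by edgeR, and from 0.0606 to 0.564 over the alternatives. Cdx2 had 200 and 225 counts in B6 and 168 and 179 in D2, or 74.6 ± 8.18 and 60.7 ± 0.0708 CPM (SD, n = 2), with both D2 libraries below. Its log2 fold change was -0.36 (SE 0.15, interval -0.67 to -0.061), with an adjusted p of 0.106 by edgeR (0.0730 to 0.675 over the alternatives). Mixl1 was the third gene without overlap, with a log2 fold change of 0.22 (SE 0.22, interval -0.24 to 0.67; edgeR adjusted p 0.602). Non-overlap was found at 3 of the 9 genes and at 56.4% of all genes tested, so it was no more common here.

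The other 6 genes overlapped between strains. The log2 fold change was -0.37 for T (interval -0.90 to 0.15), -0.23 for Gata4 (-0.85 to 0.39), -0.17 for Gsc (-0.53 to 0.19), -0.15 for Gata6 (-0.69 to 0.38), -0.035 for Pax6 (-0.49 to 0.43) and 0.11 for Sox17 (-0.36 to 0.58). Without D2 replicate 1 the value was 0.10 for Gata6, 0.13 for Pax6 and -0.081 for Sox17, all with the sign turned, and the Pax6 sign also turned without B6 replicate 1 (0.16) and with library totals (0.033). These intervals include 0 and also values as low as -0.85 for Gata4 and -0.90 for T. Whether DNA differences between the strains affect how many reads map was not tested.

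**Figure D5:**
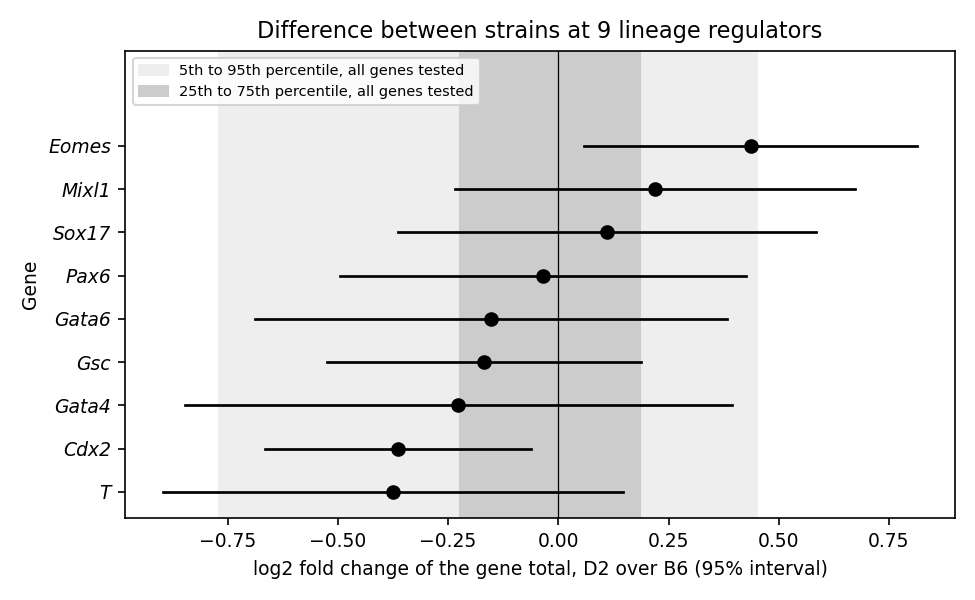
Log2 fold change of the gene total, D2 over B6 (horizontal axis), with its 95% interval from the edgeR fit, for the 9 regulators with an anchor; grey bands give the 25th to 75th and 5th to 95th percentiles of all 13826 genes tested. The intervals of Eomes (0.059 to 0.81) and Cdx2 (-0.67 to -0.061) leave out 0 without adjustment, and those of the other 7 genes include it.

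Single loops gave the same picture with less precision. Of the 28 members' loops with at least 20 counts, 0 passed an adjusted p of 0.05 by edgeR, against 1543 of 108034 loops of the table (1.43%). Of those, 510 (0.472%) were higher and 1033 (0.956%) lower in D2, or 685 and 861 with library totals. The log2 fold changes of the 28 ran from -1.37 to 1.22 with a median of 0.024, and 15 were above 0. Strains did not overlap in 11 of the 28, against 41.7% of all tested loops. Without adjustment 1 of the 28 had p under 0.05, against 11.7% of all loops tested. It was Cdx2 to Rpl21 and Rasl11a, with a log2 fold change of -1.37 (SE 0.55, interval -2.44 to -0.30, edgeR adjusted p 0.232). By the DESeq2 Wald test 0 of the 28 had an unadjusted p under 0.05, against 2358 of 108034 loops. The Mixl1 to Acbd3 loop had 4 and 2 counts in B6 and 6 and 9 in D2 (log2 1.22, interval -0.12 to 2.56), and the Eomes loop at 17.3 kb a log2 fold change of 0.97 (interval -0.013 to 1.96).

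In the 4 lineage lists, 2 of 33 tested genes had an adjusted p under 0.05 by edgeR, both higher in D2, against 13.3% of all genes called and 3.49% called higher. Lama1, which encodes a laminin chain of the endodermal basement membrane, had B6 totals of 116 and 126 and D2 totals of 176 and 178 counts (log2 difference 0.48 with SE 0.16, edgeR adjusted p 0.0428, and 0.0166 to 0.433 over the alternatives). Tfap2a, a transcription factor gene of the trophectoderm and surface ectoderm, had B6 totals of 356 and 350 and D2 totals of 516 and 443 counts (log2 difference 0.37 with SE 0.13, edgeR adjusted p 0.0454, and 0.000492 to 0.367 over the alternatives). Both calls were lost by the DESeq2 Wald test (adjusted p 0.243 and 0.193) and when B6 replicate 1, B6 replicate 2 or D2 replicate 1 was left out, and the Tfap2a value was 0.23 without D2 replicate 1. No gene of these lists passed as lower in D2 with all libraries. Olig2 had a log2 fold change of -0.28 with all libraries and -0.48 without D2 replicate 2. Tead4 had -0.30 and -0.31. With library totals in place of TMM factors, Sox1 (log2 0.57, edgeR adjusted p 0.0325) and Tbx6 (log2 0.37, edgeR adjusted p 0.0481) also passed. Both were higher in D2, and 14.1% of all genes were called in that setting. With all libraries and TMM factors 15 of the 33 values were above 0 (median -0.038). Of the 7 pluripotency genes, Tbx3 (log2 0.48, edgeR adjusted p 0.0233) and Zfp42 (log2 0.41, edgeR adjusted p 0.0424) passed with library totals but not with TMM factors. Both were higher in D2. With TMM factors Nanog (log2 0.56, SE 0.14, edgeR adjusted p 0.00637) and Sox2 (log2 0.50, SE 0.13, edgeR adjusted p 0.00817) passed, both higher in D2. Without D2 replicate 1 neither passed, and the values were 0.16 and 0.28. In that setting Pou5f1 was at -0.52 and Klf4 at -0.53, against -0.24 and -0.31 with all libraries. The values of these 4 pluripotency genes therefore depended on that library. The Nanog and Sox2 calls were also lost by the DESeq2 Wald test (adjusted p 0.449 and 0.0541) and without B6 replicate 1, and that of Nanog without B6 replicate 2.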

How the data were processed

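The authors deposited raw read-pair counts per pair of anchors for 4 libraries, with no normalization, and the distance in bp between anchor midpoints. Per the submitters' processing notes, HiC-Pro 2.11.4, DESeq2 and the build mm10 were used; the loop caller's settings and the filters are not given in the sources used here. The deposited single-library files hold the same counts and a value taken as a q-value (a p-value adjusted by the caller). All 56562 anchors started and ended at GATC in GRCm38. Start sites came from GENCODE M21. Levels are CPM, counts scaled to a library total of 1000000. A gene total sums each loop at the gene's start sites once; genes that share an anchor share counts.

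Loops and gene totals with at least 20 counts over the 4 libraries were tested, D2 over B6, with strain as the single term, by edgeR 4.0.16 (glmQLFit and glmQLFTest, limma 3.58.1, R 4.3.3) with TMM factors on library totals and Benjamini-Hochberg adjustment over all loops or all protein-coding genes. The standard error is the log2 fold change over the square root of F. DESeq2 1.42.0 was an alternative. The script was tested on simulated counts. The replicates are separate lines. Same-numbered libraries are not known to share a batch.

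The members and lists were chosen with earlier results of these data known. The rule for named items took all members, the 3 strongest loops of each (1 Mixl1 loop is not reported here), called loops, and in each list the 3 genes with the most counts and those called; loops in all 4 libraries' calls, loops with unadjusted p under 0.1, the Golga4 loop, Isl1, Zfp42, genes called without 1 library and the rank by distance and width were added after values were seen. Promoter windows are the 250 bases before the start in the RefSeq table, shorter than planned.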

Additional observations from a re-analysis of the deposited data

How the results depend on the processing

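No count of changed members moved: 0 member loops and 0 of the 9 gene totals were called under any alternative run. Loops tested at member start sites numbered 69 with a minimum of 10 counts, 6 with 50 and 598 with none. Of all loops, 0.0889% were called by the DESeq2 Wald test, 0.0203% with a minimum of 10 counts and 0.0502% with none. At such shares these runs were unlikely to call a member loop, so the 0 there says little. By the DESeq2 Wald test the loops of Mixl1 at 31.3 kb, Cdx2 at 470.8 kb and Eomes at 17.3 kb had no adjusted p. These loops could therefore not be called in that run. The number of genes with an anchor stayed 9 except with the 5′ end alone (6), and loops numbered 416 to 660. Over the whole table, the DESeq2 Wald test called 96 loops and 771 gene totals, a minimum of 10 counts 45 loops and no minimum 759 loops. Leaving out single libraries gave 324 to 2033 loops and 775 to 3276 gene totals, the highest without D2 replicate 2. With the replicate number as a block, 1335 loops and 2021 gene totals were called and 0 members; same-numbered libraries deviated with a correlation of -0.000523 over loops and 0.0306 over gene totals, so the numbers gave no sign of pairing. With library totals Pax6 had a log2 fold change of 0.033. When single libraries were left out, Gata6 ranged from -0.47 to 0.10, Pax6 from -0.22 to 0.16 and Sox17 from -0.081 to 0.28; Eomes (0.36 to 0.51), Cdx2 (-0.49 to -0.24), Gata4 (-0.44 to -0.046), T (-0.60 to -0.18), Mixl1 (0.080 to 0.36) and Gsc (-0.26 to -0.086) kept their sign but moved. So did the loops of Cdx2 at 470.8 kb (-2.04 to -0.88), Eomes at 17.3 kb (0.53 to 1.63) and Mixl1 at 31.3 kb (0.84 to 1.75). The share of members' loops called per library was 50.3% at q under 0.05, against 49.4% of all loops. At q under 0.001 it was 12.7%, against 15.4%. The lower share of the members at q under 0.01 was therefore not seen at q under 0.05. The pooled median distance of members' counts was 227.7, 127.7, 111.9 and 77.5 kb with loops of at least 2, 5, 10 and 20 counts. These minimums were chosen after seeing the data. The D2 minus B6 difference stayed below 0 under every alternative run. With at least 20 counts the medians were 77.5 and 176.3 kb in B6 and 76.9 and 68.6 kb in D2. Most of that difference came from B6 replicate 2. The causes of these changes were not tested, and totals of 110 to 772 counts limit the precision.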
